A study of Mus musculus with 8 samples.

Results

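Gap43, Fabp7, S100b, Ngfr, Ncam1, Cadm1, Gfra3 and Foxd1 were grouped here as immature glial and neural crest genes. Their values are described in cells sorted from mouse skin. Not all of them are particular to glia or crest, as is said for Cadm1 and Foxd1 below. All 8 genes were measured, each by 1 probe set with a single gene symbol, among 22180 genes in all. The group was chosen by the measured values of Gap43 and Fabp7, which had been seen to read lower in 21-day than in 4-day wild-type cells while myelin genes rose. Their values in that comparison, and in the comparison of knockout cells with the same 4-day arrays, are therefore descriptions without a test. The knockout was set against wild-type cells of the same age with a test, although it shares the 21-day wild-type arrays with the comparison that chose the genes.

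Melanocytes and the Schwann cells of peripheral nerve both descend from the neural crest, an embryonic population of migrating cells, and part of the skin's melanoblasts arise from Schwann cell precursors along nerves. Immature Schwann cells carry growth, adhesion and neurotrophin receptor proteins that cells forming myelin switch off. Many of these proteins are shared with melanocyte precursors, so their genes mark a common origin as much as 1 cell type.

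The arrays hold amplified cDNA from 3 groups of cells that expressed GFP and lacked p75 at their surface. P21_KO (4 arrays) came from 21-day mice that were B-raf fl/fl and also C-raf fl/fl. P21_WT (2 arrays) came from 21-day mice and P4_WT (2 arrays) from 4-day mice, with B-raf +/+ and likewise C-raf +/+. All groups carried TyrCre, a Cre recombinase under the tyrosinase promoter, and the Z/EG reporter, which turns on GFP where Cre has acted, on a mixed background of C57Bl/6 and 129/Sv. The labels call the 4-day cells melanoblasts and the 21-day cells melanocyte stem cells. In P21_KO 3 arrays, all but replicate 1, share a label number whose meaning is not given, so their independence is not known. The spread behind each p-value is that between the arrays.

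Arrays of a group correlated at 0.954 to 0.974 across genes. P4_WT replicate 2 stood apart in sex-linked genes, with Xist at 8.94 against 1.95 to 2.77 elsewhere, and in mast cell genes, whose mean was 4.34 against 2.17 to 2.41 on the other arrays. All 10 melanocyte markers, Dct, Mitf and Kit among them, read above each array's median, which was 3.34 to 3.40. So did all 12 measured genes of myelinating Schwann cells, which are not melanocyte genes. Of 15 neuron genes, 11 read below the median on every array, Nefl and Snap25 among them. Braf, a target of the knockout, read 6.57, 6.49, 6.30 and 5.66 in P21_KO and 5.99 and 7.20 in P21_WT, which overlap. The place of its probes relative to the deleted part is not known, so it gives no check of the deletion.

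The 8 genes did not move as 1 set with age, as the plot of each gene by array shows. Gap43, Fabp7 and Gfra3 were lower in P21_WT than in P4_WT. S100b, Ngfr, Ncam1 and Cadm1 overlapped between every pair of groups. Foxd1 read below the median of each of the 8 arrays.

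**Figure D1:**
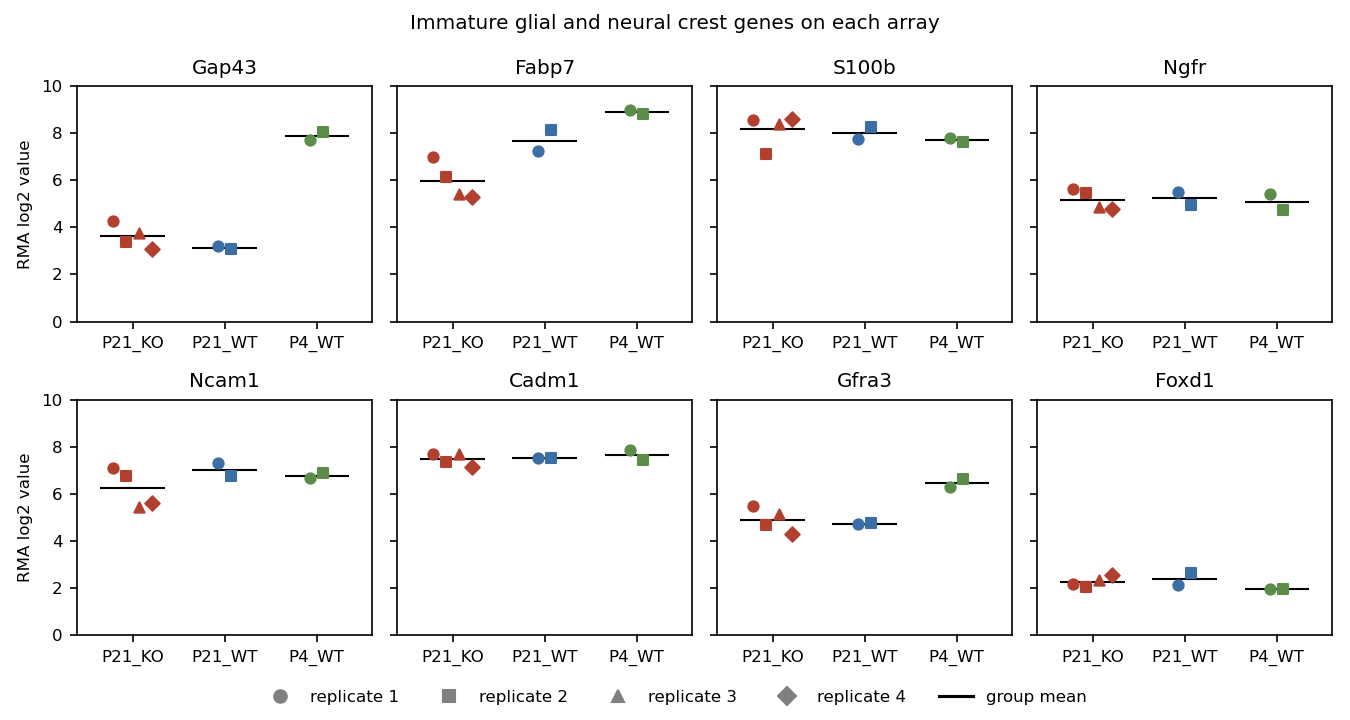
RMA log2 value (vertical axis) of each of the 8 genes on each array of P21_KO, P21_WT and P4_WT, with 1 symbol per replicate and a line at the group mean. Gap43 lies between 3.07 and 4.27 on the 21-day arrays and at 7.72 and 8.06 in P4_WT, while Cadm1 lies between 7.14 and 7.87 on all 8.

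Of the genes, 4 had a promoter in the RefSeq table of GRCm38.p6, Fabp7, S100b, Ngfr and Foxd1. Those of Fabp7 and S100b are shown because both genes lie on chromosome 10 and encode small cytosolic proteins used as glial markers, and only the Fabp7 arrays of P21_KO and P21_WT failed to overlap. Each runs 5′ to 3′ from 250 bases before the start to 50 after it, on the plus strand, at chr10:57784673-57784972 for Fabp7 and chr10:76253586-76253885 for S100b. Capitals mark CANNTG, the E-box bound by basic helix-loop-helix proteins, a class that includes MITF.
Fabp7: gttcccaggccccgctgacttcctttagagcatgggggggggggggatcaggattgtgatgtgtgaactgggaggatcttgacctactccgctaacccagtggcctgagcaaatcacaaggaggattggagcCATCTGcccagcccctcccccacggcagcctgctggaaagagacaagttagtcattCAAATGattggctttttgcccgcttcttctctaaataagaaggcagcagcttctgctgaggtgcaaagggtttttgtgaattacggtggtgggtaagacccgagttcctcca
S100b: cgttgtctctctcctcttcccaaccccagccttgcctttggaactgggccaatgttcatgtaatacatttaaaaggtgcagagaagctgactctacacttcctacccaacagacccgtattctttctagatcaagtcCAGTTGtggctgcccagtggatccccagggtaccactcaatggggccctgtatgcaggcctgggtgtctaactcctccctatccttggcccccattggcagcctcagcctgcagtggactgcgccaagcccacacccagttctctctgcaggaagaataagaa
The Fabp7 window holds E-boxes with the letters CATCTG and CAAATG, which begin at -118 and -62 relative to the start, and the S100b window holds CAGTTG at -113. An E-box stands in 72.3% of the 32851 promoters, and 39.6% hold at least 2, so its presence here is common. Ngfr has 2 E-boxes and Foxd1 has 1. That of Foxd1 reads CATGTG, a form of CANNTG preferred by MITF and found in 14.2% of promoters. The windows of Fabp7, S100b, Ngfr and Foxd1 hold no AACAAT (10.7% of promoters), a core of SOX sites, no ACAAAG (18.7%), a variant of it, and no TGACTCA (5.20%), the AP-1 site. CCCCGCCC, a GC box, was found in the Ngfr window, at -63 on the minus strand, and in 17.6% of all promoters. Both strands were searched, and a match is not evidence of binding.

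Gap43 encodes a membrane protein of growth cones that is phosphorylated by protein kinase C and is also made by immature and non-myelinating Schwann cells. It read 4.27, 3.38, 3.75 and 3.07 in P21_KO, 3.20 and 3.07 in P21_WT, and 7.72 and 8.06 in P4_WT. All 6 arrays of 21-day cells were thus far below both P4_WT arrays, and 3 of the 6 were below the median of their own array, where RMA compresses differences. The log2 change was -4.76 ± 0.35 (SE) for P21_WT minus P4_WT, which is the value that chose the gene, and -4.27 ± 0.31 (SE) for P21_KO minus P4_WT. Without P4_WT replicate 2 these were -4.59 and -4.10, and without P4_WT replicate 1 they were -4.92 and -4.44.

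Between the 21-day groups the Gap43 arrays overlapped. They averaged 3.62 ± 0.52 for P21_KO (SD, n = 4) against 3.13 ± 0.09 for P21_WT (SD, n = 2). The difference was 0.48 ± 0.31 (SE), with a 95% interval of -0.22 to 1.18, and limma gave an adjusted p of 0.879. P21_KO replicate 1 was the highest of the 21-day arrays for Gap43, and also for Gfra3 below.

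Fabp7 encodes brain lipid-binding protein, a fatty acid carrier of radial glia and Schwann cell precursors. Its values were 6.99, 6.13, 5.43 and 5.28 in P21_KO, 7.22 and 8.14 in P21_WT, and 8.98 and 8.82 in P4_WT. The 3 groups did not overlap, with P21_KO lowest, P21_WT between and P4_WT highest, and all arrays were above their median. The gap between P21_KO and P21_WT was narrow, since P21_KO replicate 1 lay close below P21_WT replicate 1.

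The log2 change of Fabp7 was -1.72 ± 0.47 (SE) for P21_KO minus P21_WT, a 3.29-fold lower level. It had an unadjusted p of 0.00597 in limma and did not pass after adjustment over all genes (adjusted p = 0.572, 0.311 to 0.913 over the alternatives). The 95% interval was -2.79 to -0.64. The SE, the p-value and the interval treat the 4 P21_KO arrays as independent, which is not known for the 3 that share a label number. With P21_WT replicate 2 left out the change was -1.26, and with replicate 1 left out it was -2.18. For P21_WT minus P4_WT it was -1.22 ± 0.54 (SE), the other value that chose the genes, and for P21_KO minus P4_WT it was -2.94 ± 0.47 (SE). The change for P21_WT minus P4_WT was -0.76 without P21_WT replicate 1, so 1 array sets much of its size, and -1.30 without P4_WT replicate 2.

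Melanocyte markers, as a mean, ran in the order of Fabp7 across the P21_KO arrays. The mean of the 10 markers was 8.21, 7.74, 7.15 and 6.63 in P21_KO in order of replicate, 8.62 and 8.55 in P21_WT, and 9.62 and 9.55 in P4_WT. Among the P21_KO arrays, replicate 1, the one without the shared label number, was highest and replicate 4 lowest for both. Of the 10 markers, 9 were lower in P21_KO than in P21_WT, where 48.6% of all genes were lower, with a median of -1.09. Limma called 0 of them and 7 had an unadjusted p under 0.05 (6.52% of all genes), and Tyr, the gene of tyrosinase, had the smallest p (-1.91 ± 0.35 SE, limma adjusted p = 0.368). Sox10, a factor of both lineages, read 7.79 to 8.32 in P21_KO and 7.99 and 8.14 in P21_WT. The part of these markers in the Fabp7 result was not tested, and in sorted pools fewer cells of a type and less RNA per cell cannot be told apart.

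**Figure D2:**
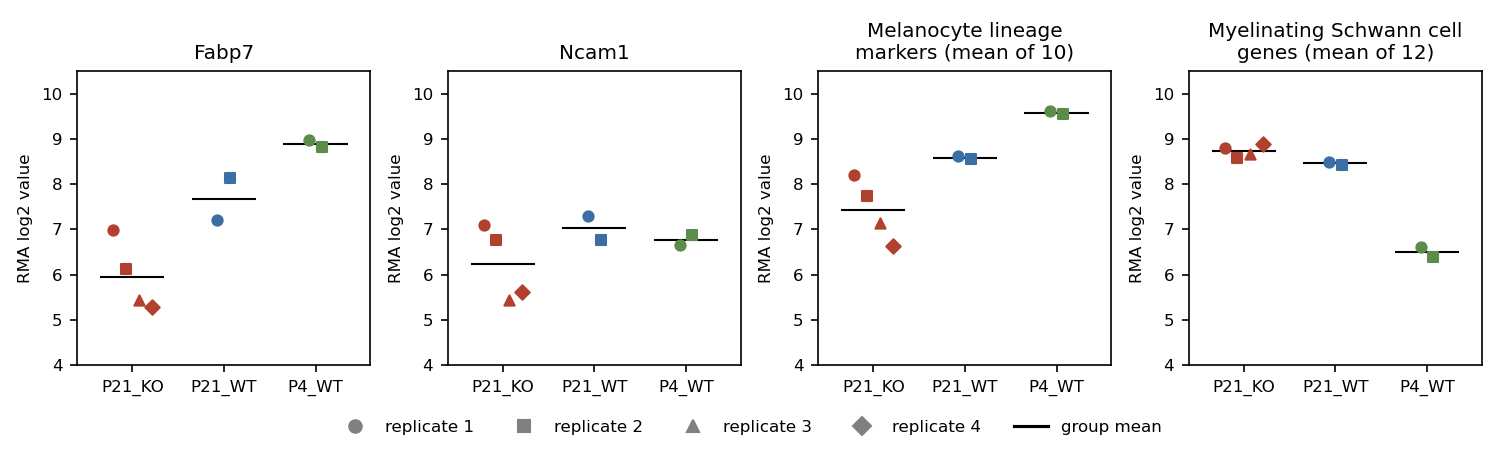
RMA log2 value (vertical axis) on each array for Fabp7, Ncam1, the mean of 10 melanocyte lineage markers and the mean of 12 myelinating Schwann cell genes, with a line at the group mean. Fabp7 and the melanocyte mean are lowest in P21_KO, and Ncam1 in P21_KO lies at 7.10 and 6.77 on 2 arrays and at 5.44 and 5.62 on 2, while the myelin mean is 8.59 to 8.89 in P21_KO, 8.50 and 8.42 in P21_WT, and 6.62 and 6.39 in P4_WT.

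Gfra3 encodes the receptor that binds artemin, a ligand of the GDNF family, and signals through Ret. It read 5.49, 4.69, 5.12 and 4.27 in P21_KO, 4.72 and 4.75 in P21_WT, and 6.27 and 6.62 in P4_WT. As with Gap43, all 6 arrays of 21-day cells lay below both arrays of P4_WT, and the 21-day groups overlapped. The log2 change was 0.15 ± 0.31 (SE) for P21_KO minus P21_WT (limma adjusted p = 0.975; 95% interval -0.56 to 0.87). For P21_WT minus P4_WT it was -1.71 ± 0.36 (SE) and for P21_KO minus P4_WT it was -1.55 ± 0.31 (SE), both without a test. Without P4_WT replicate 2 the first of these was -1.53.

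Ngfr encodes the p75 neurotrophin receptor, the protein whose absence from the surface defined the sorted cells. Its RNA read 5.62, 5.47, 4.85 and 4.76 in P21_KO, 5.52 and 4.94 in P21_WT, and 5.40 and 4.73 in P4_WT. All 8 arrays were above their median, and every pair of groups overlapped. Since all cells were gated on this protein, the values are no result about the groups. The difference of P21_KO from P21_WT was -0.05 ± 0.32 (SE), with a 95% interval of -0.78 to 0.68 (limma adjusted p = 0.999).

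Ncam1 encodes the neural cell adhesion molecule, which immature and non-myelinating Schwann cells carry. Its values were 7.10, 6.77, 5.44 and 5.62 in P21_KO, 7.29 and 6.76 in P21_WT, and 6.65 and 6.88 in P4_WT. P21_KO replicates 1 and 2 lay within the range of the wild-type arrays, and replicates 3 and 4 lay below all of them. The change of -0.80 ± 0.46 (SE) between P21_KO and P21_WT did not pass (limma adjusted p = 0.864; 95% interval -1.86 to 0.26). P21_WT minus P4_WT was 0.27 ± 0.53 (SE).

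Cadm1 encodes a nectin-like adhesion molecule of nerve, epithelium and mast cells. Apart from the dim Foxd1 it had the narrowest range of the members over the 8 arrays (0.73), with 7.70, 7.35, 7.70 and 7.14 in P21_KO, 7.51 and 7.53 in P21_WT, and 7.87 and 7.43 in P4_WT. Its change was -0.05 ± 0.21 (SE) between the 21-day groups, with a 95% interval of -0.53 to 0.44 (limma adjusted p = 0.997). P4_WT replicate 2, the array with the high mast cell mean, had the lower Cadm1 value of the P4_WT arrays. The part of mast cells in the Cadm1 values was not tested.

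S100b encodes a calcium-binding protein of Schwann cells that melanocytes also make. It read 8.54, 7.13, 8.40 and 8.59 in P21_KO, 7.77 and 8.27 in P21_WT, and 7.79 and 7.63 in P4_WT. P21_KO replicate 2 was the lowest of all arrays and the other P21_KO arrays were the highest, so the groups overlapped through 1 array. The change was 0.14 ± 0.40 (SE) for P21_KO minus P21_WT (limma adjusted p = 0.991; 95% interval -0.77 to 1.06), and 0.49 without P21_KO replicate 2. P21_WT minus P4_WT was 0.31 ± 0.46 (SE).

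Foxd1 encodes a forkhead transcription factor of the developing kidney stroma and retina. It read 2.16, 2.04, 2.33 and 2.54 in P21_KO, 2.11 and 2.65 in P21_WT, and 1.94 and 1.96 in P4_WT. These values are near the floor of the arrays, below the median of 3.34 to 3.40, so differences among them are poorly measured and the table gives no detection call. The P4_WT arrays were lowest, with a log2 change of 0.43 ± 0.24 (SE) for P21_WT minus P4_WT. P21_KO minus P21_WT was -0.11 ± 0.20 (SE) (limma adjusted p = 0.971).

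Across the 8 genes, limma called 0 for P21_KO against P21_WT, where 0% of all genes were called. At an unadjusted p under 0.05 there was 1 of the 8, Fabp7, which was lower, where 6.52% of all genes passed and 3.69% passed as lower. Groups failed to overlap in 1 of the 8, again Fabp7, where 15.4% of all genes did and 7.64% were lower, and the members' median change was -0.05 against 0.01 over all genes. For P21_WT against P4_WT the groups failed to overlap in 4 of the 8, 3 lower and 1 higher, where 43.5% of all genes did (22.1% lower and 21.4% higher), and nothing is read from that count. For P21_KO against P4_WT the 4 were the same genes, Gap43, Fabp7, Gfra3 and Foxd1, where 29.6% of all genes did not overlap (15.5% lower and 14.2% higher). Both of the last comparisons share the P4_WT arrays.

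**Figure D3:**
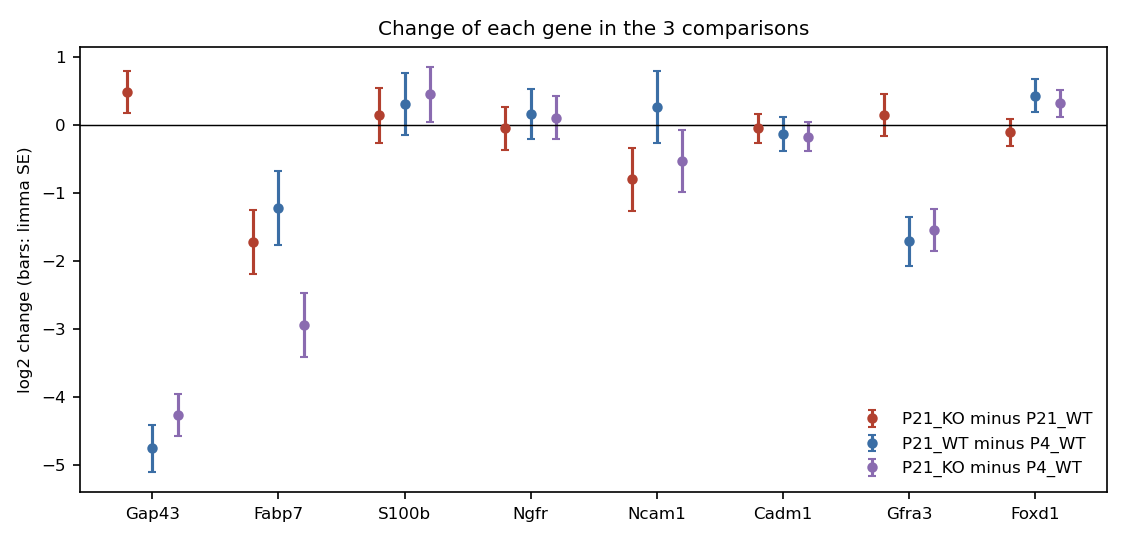
Log2 change (vertical axis) of each of the 8 genes for P21_KO minus P21_WT, P21_WT minus P4_WT and P21_KO minus P4_WT, with bars of 1 SE from limma. Gap43 and Gfra3 lie below 0 only against P4_WT, at -4.76 and -1.71 in P21_WT, whereas Fabp7 lies below 0 in all 3 comparisons.

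Other genes of the neural crest and of Schwann cell precursors gave a mixed picture with age. Of 35 listed genes 32 were measured, and for P21_WT against P4_WT limma called 4 higher and 1 lower (15.6%), where 1.61% of all genes were called, 0.757% higher and 0.852% lower. The median change was -0.09 against 0.00 over all genes, with 14 members positive and 18 negative. The 4 called higher include Cnp, a gene of myelin-forming glia, and Pou3f1, a factor of cells about to form myelin. A rise of myelin genes helped choose the members, so the share called is not independent of that choice, and nothing is read from it. Without P21_WT replicate 1 or replicate 2, 2 genes were called, Pou3f1 and Moxd1.

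Moxd1, an enzyme gene of the dopamine beta-hydroxylase family, fell with age. It read 4.15 and 4.70 in P21_WT, against 7.59 and 7.57 in P4_WT, with 3.50 to 4.49 on the arrays of P21_KO. The change was -3.16 ± 0.35 (SE; limma adjusted p = 0.00493). Pou3f1, a transcription factor of Schwann cells about to form myelin, rose: it read 7.82 and 7.60 in P21_WT, against 6.20 and 5.96 in P4_WT (1.63 ± 0.17 SE; limma adjusted p = 0.00379). Jun, an AP-1 factor of immature and injured Schwann cells, rose by 1.55 ± 0.24 (SE; limma adjusted p = 0.0202). Cnp, an enzyme of myelin-forming glia and so of the kind of gene whose rise helped choose the members, was higher by 1.54 ± 0.23 (SE). Sox8, a relative of Sox10, rose by 2.55 ± 0.36 (SE; limma adjusted p = 0.0138).

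For P21_KO against P4_WT 6 of the 32 were called higher and 5 lower (34.4%), where 7.73% of all genes were called, 3.05% higher and 4.68% lower. The 6 again include Cnp and Pou3f1, and the P4_WT arrays are shared, so the same limit holds. The 5 lower ones, named after their values were seen, were Tfap2b, Twist1, Ets1, Itga4 and Moxd1. Of the 8 fits that leave out 1 array, Tfap2b and Moxd1 were called in 8, Itga4 in 7, Twist1 in 1 and Ets1 in 0. In the knockout against P21_WT limma called 0 of the 32, at an unadjusted p under 0.05 there were 7 (6.52% of all genes), and the list's median was -0.12. Nes, the gene of the intermediate filament nestin, had the smallest p, with 5.04, 5.03, 5.23 and 4.90 in P21_KO against 5.52 and 5.65 in P21_WT (-0.53 ± 0.15 SE, limma adjusted p = 0.572).

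**Figure D4:**
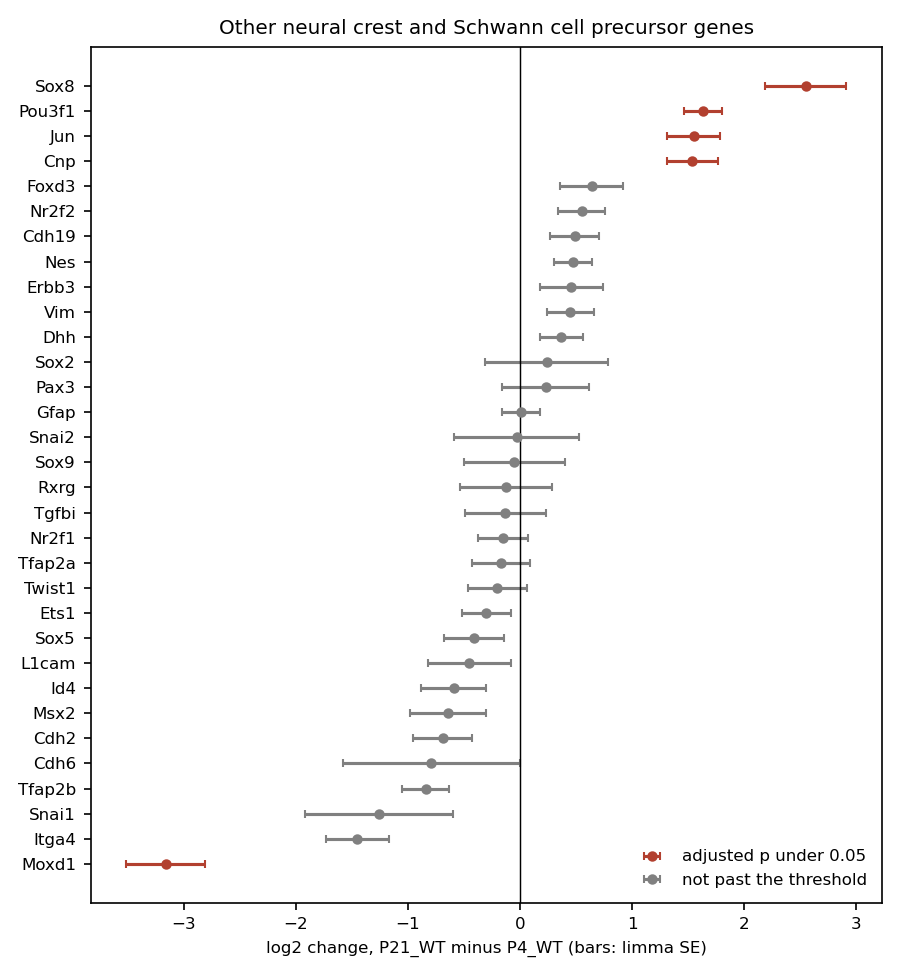
Log2 change P21_WT minus P4_WT (horizontal axis) of 32 other neural crest and Schwann cell precursor genes, sorted by size, with bars of 1 SE from limma and genes called at an adjusted p under 0.05 in red. Sox8, Pou3f1, Jun and Cnp lie to the right and Moxd1 to the left, and the remaining 27 are not called.

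Genes of mature, myelinating Schwann cells read higher with age on these arrays, which is part of how the members were chosen, so they are described without a test. Their mean was 8.81, 8.59, 8.66 and 8.89 in P21_KO, 8.50 and 8.42 in P21_WT, and 6.62 and 6.39 in P4_WT. All 12 measured genes were higher in P21_WT than in P4_WT, with a median log2 change of 1.95. Drp2, a gene of the myelin sheath, read 9.47 to 9.72 in P21_KO, 9.03 and 9.17 in P21_WT, and 6.36 and 5.98 in P4_WT. In P21_KO against P21_WT the median of the 12 was 0.29, with 0 called and 4 at an unadjusted p under 0.05 (6.52% of all genes).

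Partner genes of the 8 members were also measured. Of 96 genes on the 8 partner lists 87 were measured, and for P21_WT against P4_WT 2 were called, both higher (2.30%, where 1.61% of all genes were). The first was Nfasc, which encodes neurofascin, an L1-family adhesion protein of the node of Ranvier in myelinated nerve. Nfasc read 6.53 and 6.85 in P21_WT, against 4.36 and 4.57 in P4_WT (2.22 ± 0.17 SE; limma adjusted p = 0.00122), and 7.22 to 7.38 in P21_KO. A rise of myelin genes in this comparison helped choose the members, so its call is not independent of that choice, and nothing is read from it. The second was Cadm3, a nectin-like relative of Cadm1, which read 6.56 and 6.60 in P21_WT, against 4.77 and 4.73 in P4_WT (1.83 ± 0.21 SE; limma adjusted p = 0.00607), and 6.87 to 7.34 in P21_KO. Between the 21-day groups 0 of the 87 were called, and 9 had an unadjusted p under 0.05 (6.52% of all genes). For P21_KO against P4_WT 4 were called higher and 5 lower (10.3%, where 7.73% of all genes were), and 6 in all without P4_WT replicate 1.

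Around Gap43, 15 of 17 growth cone partners were lower in P21_WT than in P4_WT, where 49.8% of all genes were lower, with a median of -0.21 and 0 called. Some of the 15 were dim and hardly changed, such as Dcx (-0.02), Prkcb (-0.04) and Crmp1 (-0.09). Against the same P4_WT arrays, 10 of the 17 were lower by any amount in P21_KO (47.3% of all genes), with a median of -0.07. The comparison of P21_WT with P4_WT chose Gap43, and both share the P4_WT arrays, so nothing is read from these counts. For P21_KO against P4_WT 3 of the 17 were called, all lower (17.6%, where 7.73% of all genes were called, 4.68% as lower). They were Basp1, Marcks and Dpysl3, and fewer were called with either P4_WT array left out. Marcks, like Gap43 a membrane substrate of protein kinase C, had the smallest p, with 7.49 and 7.41 in P21_WT against 8.37 and 8.12 in P4_WT (-0.80 ± 0.17 SE; limma adjusted p = 0.0707). In the knockout comparison the smallest p was that of Sprr1a, a protein of regenerating axons and of keratinocytes, at -1.95 (limma adjusted p = 0.766).

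Around Fabp7, 0 of 9 other fatty acid binding proteins were called, and the smallest p with age was that of Fabp5, the epidermal form (-0.62 ± 0.23 SE; limma adjusted p = 0.291). Pmp2, the fatty acid binding protein of peripheral myelin, had the smallest p in the knockout comparison. It read 5.91, 3.93, 4.31 and 4.79 in P21_KO, against 6.39 and 6.09 in P21_WT, with a change of -1.50 (limma adjusted p = 0.609). Its P21_KO arrays lay below both P21_WT arrays, as did those of Fabp7 and Fabp12, and as held for 7.64% of all genes. Those of Fabp3 lay above both, with a change of 0.42 (limma adjusted p = 0.81). Of 15 genes on the list of other S100 genes and their receptor gene Ager, 0 were called with age or genotype, and S100a7a (0.90 with age, limma adjusted p = 0.154) and S100a11 (-0.52 with genotype, limma adjusted p = 0.736) had the smallest p.

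Around Ngfr, 0 of 9 neurotrophin genes were called, and Ntrk3, the receptor of neurotrophin 3, had the smallest p in both comparisons. Ntrk3 read 4.38, 4.44, 4.21 and 4.30 in P21_KO and 5.05 and 5.35 in P21_WT, which do not overlap, and 4.35 and 4.54 in P4_WT. The knockout thus read within or below the range of P4_WT. The change was -0.87 for P21_KO minus P21_WT (limma adjusted p = 0.329) and 0.76 for P21_WT minus P4_WT (limma adjusted p = 0.0900), and the comparisons share the P21_WT arrays.

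Around Gfra3, 0 of 9 genes of the GDNF family were called. Gdnf, a ligand, had the smallest p in both comparisons, with 3.08, 2.65, 2.26 and 2.40 in P21_KO, 2.98 and 3.73 in P21_WT, and 2.29 and 2.30 in P4_WT, mostly below the arrays' median. Artn, the ligand of Gfra3, and Ret, its signalling partner, were dim on the 21-day arrays. Artn read 2.38 to 2.62 in P21_KO, 2.83 and 2.40 in P21_WT, and 3.66 and 2.63 in P4_WT. Ret read 2.50 to 3.19 in P21_KO, 2.58 and 2.88 in P21_WT, and 3.88 and 3.07 in P4_WT, so that both lay above the array's median on P4_WT replicate 1 alone. Among 7 other Foxd, Foxf and Foxc genes 0 were called. Foxd3, a regulator of the early neural crest, read 7.29, 7.33, 7.68 and 8.09 in P21_KO, 7.31 and 7.41 in P21_WT, and 6.55 and 6.90 in P4_WT, with a change of 0.64 ± 0.28 with age (SE; limma adjusted p = 0.408). Foxd2 had the smallest p in the knockout comparison (-0.48, limma adjusted p = 0.811). At an unadjusted p under 0.05 with age 12.6% of all genes passed. So did 3 each of the growth cone (17 genes), S100 (15), neurotrophin (9) and GDNF (9) lists. There were also 4 of 13 NCAM and L1 genes, 2 of 8 nectin genes, 1 of 9 fatty acid binding proteins and 0 of 7 Fox genes. In the knockout comparison, where 6.52% of all genes passed, there were 2 each of the growth cone and the NCAM and L1 lists. The Fox list had 0 and the other 5 had 1 each. Nothing is read from these small counts.

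Markers of other cells that make member proteins were read beside them. The neuron genes had a mean of 3.04 to 3.10 in P21_KO, 2.92 and 2.88 in P21_WT, and 2.91 and 2.98 in P4_WT. These means lie below the median of each array, where RMA compresses differences, and the part of neurons in the Gap43 values was not tested. Uchl1, a neuronal enzyme gene, had the smallest p among them (0.90 for P21_KO minus P21_WT, limma adjusted p = 0.469). Mast cell genes, the list high in P4_WT replicate 2, had 0 of 8 called in either comparison, and Cma1, a mast cell protease gene, read 2.36 and 5.92 in P4_WT. Adipocyte genes had 0 of 7 called and muscle genes 0 of 8. Muscle genes averaged 2.89 to 3.05 in P21_KO, 3.71 and 2.95 in P21_WT, and 2.79 and 3.09 in P4_WT. The array with the highest muscle mean, P21_WT replicate 1, was also the one with the highest Ncam1, which muscle expresses, and the part of muscle in that value was not tested. Fibroblast and dermal papilla genes averaged 4.93 to 5.70 in P21_KO, 5.62 and 5.41 in P21_WT, and 5.68 and 6.29 in P4_WT. Fbln1 fell with age (-1.73 ± 0.29 SE; limma adjusted p = 0.0274), the 1 called of 12, and it was called in 4 of the 8 fits that leave out 1 array. Keratinocyte and hair genes averaged 5.45 to 6.28 in P21_KO, 5.91 and 5.93 in P21_WT, and 8.07 and 6.51 in P4_WT. Krt25, Krt27 and Krt71, genes of the hair's inner root sheath, fell with age, the 3 called of 9, and 0 were called without P21_WT replicate 1 or replicate 2. The keratinocyte genes of that list did not fall together. Krt14, Krt10, Krt1 and Krtdap were higher with age by 0.96, 1.39, 1.01 and 1.52, Lor was lower (-0.59), and none was called. Over all genes 1.61% were called with age, 0.852% as lower. The part of hair and fibroblast cells in the low Gap43, Fabp7 and Gfra3 values of 21-day cells was not tested.

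The genes whose values ran most nearly parallel to Gap43 over the 8 arrays, among genes that ranged over at least 2 log2 units, were Abcg2, Cenpk and Aurkb, each with a Pearson r of 0.99. Abcg2 encodes an efflux transporter, Cenpk a centromere protein and Aurkb a mitotic kinase. Aurkb read 3.56, 2.85, 3.61 and 3.27 in P21_KO, 2.96 and 2.91 in P21_WT, and 5.54 and 5.78 in P4_WT. For Gfra3 they were Slitrk6, a membrane protein of neurons (0.98), Aqp1, a water channel (0.96), and Cenpw, a centromere protein (0.96). Slitrk6 read 4.41, 3.21, 3.31 and 2.97 in P21_KO, 3.22 and 3.16 in P21_WT, and 5.74 and 6.19 in P4_WT. P21_KO replicate 1 was the highest 21-day array for it too.

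Fabp7 had other neighbours. Bnc2, a zinc finger gene linked to skin pigmentation, Col6a3, a collagen gene, and Renbp, an enzyme gene of amino sugar metabolism, each had a Pearson r of 0.97. Bnc2 read 5.16, 5.23, 4.23 and 4.07 in P21_KO, 5.90 and 6.04 in P21_WT, and 6.90 and 6.78 in P4_WT, so that its groups, like those of Fabp7, did not overlap. The likeness is a description over 8 arrays in 3 groups, and values that separate the groups alone give a high r.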

How the data were processed

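Sorted cells from mouse skin were measured on 8 Affymetrix arrays, grouped by their titles. Per the submitters' processing notes, the authors used RMA and Affymetrix Expression Console to produce the log2 values they deposited. No version is given in the sources used here. RMA compresses differences near the floor, and the amplification of small samples adds spread that cannot be told apart from that between animals.

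Of 41345 rows, 23521 had 1 gene symbol in the platform annotation. The probe set with the highest mean was kept, which left 22180 genes. A linear model of the 3 groups was fitted to all of them with limma 3.58.1 (R 4.3.3) with 5 residual degrees of freedom. Two-sided p-values were adjusted over all genes (Benjamini-Hochberg) and called under 0.05. Tested on simulated data for 22180 genes, the comparison of P21_KO with P21_WT recovered 40% of genes changed by 1 log2 unit and 83% of those changed by 2. For P21_WT with P4_WT these were 25% and 67%. The simulated arrays were independent, which is not known for the 3 P21_KO arrays that share a label number. The number of arrays limits the precision.

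The members, the 17 lists (213 genes, 197 measured) and the alternatives were chosen with earlier results of these data known. Genes named are the members, Braf, up to 4 called genes per direction of a list or otherwise its gene with the smallest p, and, for members ranging over 2 log2 units, the 3 genes most like them by Pearson r. Some genes outside this rule were named after their values were seen: Sox10, Dct, Mitf, Kit, Nefl, Snap25, Xist, Artn and Ret. So were Krt14, Krt10, Krt1, Krtdap, Lor, Dcx, Prkcb, Crmp1, Fabp3, Fabp12 and the genes called for P21_KO against P4_WT. Of the myelin genes only Drp2 is named. Replicate numbers do not pair arrays: same-numbered arrays deviated with correlations of -0.037 to 0.006. Alternatives covered the arrays fitted, weights, the prior, normalization, dim genes, probe sets, blocks, the threshold and leaving out each array.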

Additional observations from a re-analysis of the deposited data

Results flagged for a closer look

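Among 26 values checked in the 4 P21_KO arrays, S100b was flagged because P21_KO replicate 2, at 7.13, lay far from the other arrays of its group, which read 8.40 to 8.59 (gap over range 0.869). The mean of the adipocyte genes was flagged on the same array, at 3.84 against 3.26 to 3.30 (0.939), and Plin4 read 6.40 there against 4.20 to 4.82. Chance flags about 1 group in 20.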

How the results depend on the processing

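Over 18 other settings, the log2 change of each member kept its sign for Gap43, Fabp7, Gfra3 (lower) and S100b (higher) in both comparisons with P4_WT, as did Foxd1 (higher) over 17, and for Gap43, Fabp7 and Ncam1 in P21_KO minus P21_WT. No member was called by genotype in any setting. Of 429 member values, 426 stayed within the spread between replicates or on the same side of the threshold. The exceptions were Ncam1 for P21_KO minus P4_WT, at 0.17 with the replicate block, and Foxd1 for P21_WT minus P4_WT, at 0.70 and 0.16 without P21_WT replicates 1 and 2. With dim genes left out Foxd1 was not tested. The count of 426 does not measure stability. For P21_KO minus P21_WT every value met the rule once no member was called, whatever its sign. There Ngfr kept its sign in 14 of 18 settings, S100b and Cadm1 in 15, Gfra3 in 17, and Foxd1 in 16 of 17. Leaving out a P21_KO array cannot alter the log2 change of P21_WT minus P4_WT. It can alter the SE and the calls, since the groups share an estimate of the spread.

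Counts of called genes depended on the fit. With only the groups compared, 49 genes were called by age, 2 of the crest and Schwann cell precursor list and 1 partner gene. With the replicate block these were 45, 1 and 1, and 463 genes were called for P21_KO minus P4_WT. At a threshold of 0.10, 674 genes were called by age and 4 partner genes. Leaving out 1 array gave 119 to 338 genes by age, against 357, with 121 and 119 without P21_WT replicates 1 and 2 and 233 without P21_KO replicate 3. It gave 921 to 1529 genes for P21_KO minus P4_WT, against 1715, with 990 and 921 without P4_WT replicates 1 and 2, and 0 to 15 by genotype, with 15 and 2 without P21_WT replicates 2 and 1 and 1 without P21_KO replicate 1. It gave 2 to 6 precursor genes and 2 to 3 partner genes. The cause of these differences was not tested, beyond the fewer degrees of freedom of the smaller fits.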
